A study of Cicer arietinum with 8 samples.

Results

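Leaves were compared with flowers in chickpea (Cicer arietinum) plants that had received no cold stress. The study grew 4 genotypes, and each slide received cold-treated and control RNA from 1 genotype and tissue, in opposite dyes. Here only the control channel of each hybridisation was used, which gave 12 leaf channels and 10 distinct flower channels, together 22 of the 44 distinct channels of the series. All control plants stood in a glasshouse at 15 to 25 °C, were 2 weeks past the start of flowering when the treatment of the other plants began, and were harvested after the seventh cold night of those plants. The 4 genotypes were Sonali (Tolerant1), ILC 01276 (Tolerant2), Amethyst (Susceptible1) and DOOEN (Susceptible2), named for their response to cold. Each genotype gave 3 leaf channels, which the labels call leaves and the image names in the file headers call shoot. Tolerant1 and Susceptible1 gave 3 flower channels each, whereas Tolerant2 and Susceptible2 gave 2 each, because their replicate 3 files repeated replicate 1 value for value. Tissue came from pools of 5 control plants per genotype, and the flower pool held flowers, buds and early pods together. The labels call the replicates biological without saying how plants were divided among them, so the p-values below measure the spread between these channels, part of which may be technical.

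Leaves are the main photosynthetic organ, and their transcripts are dominated by nuclear and plastid genes for light capture, carbon fixation and the recycling of phosphoglycolate known as photorespiration. Flowers, buds and young pods hold dividing and expanding tissues with a high demand for new ribosomes and cell walls, and import most of their sugar as sucrose. Sepals and young pod walls are also green, so the contrast is one of degree. In pooled tissue, fewer cells of a type and less RNA per cell cannot be told apart. The slides carried 768 features, each printed 6 times. Chickpea cDNAs filled 559 of them and grasspea cDNAs 156, with 41 resistance gene analogs from lentil and 12 controls. Each value below is a background-corrected, quantile-scaled log2 intensity, so a difference of 1 is a factor of 2. Brightness also depends on the probe, so a level does not rank the abundance of different transcripts.

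Of the 12 leaf channels, 2 stood apart. Replicate 1 of Tolerant1 leaves had 18.0% of its spots unflagged and a median signal of 1.04 times the local background, and replicate 1 of Susceptible1 leaves had 30.8% and 1.12 times. The other 10 leaf channels had 56.4% to 65.8% of spots unflagged, and the 10 flower channels 42.3% to 75.8%. Over the features tested, the other leaf channels correlated with each other at r = 0.82 to 0.97, the flower channels at 0.63 to 0.96, and leaf with flower channels at 0.50 to 0.87. Replicate 1 of Tolerant1 leaves correlated with these 20 channels at only -0.10 to 0.0007, and replicate 1 of Susceptible1 leaves at 0.08 to 0.35. Both channels stayed in the main comparison, and results are also given for the 20 channels without them. The genotypes form 2 sets, Tolerant1 with Susceptible1 and Tolerant2 with Susceptible2. Among these 20 channels, those of 1 tissue with the same replicate number in the 2 genotypes of a set also resembled each other, at r = 0.86 to 0.97. Replicates of 1 group among the 20 had r = 0.63 to 0.95. The 2 channels that stood apart are such a pair too, and correlated with each other at 0.41. A fit that treated such channels as a random block was therefore run beside the main one.

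**Figure D1:**
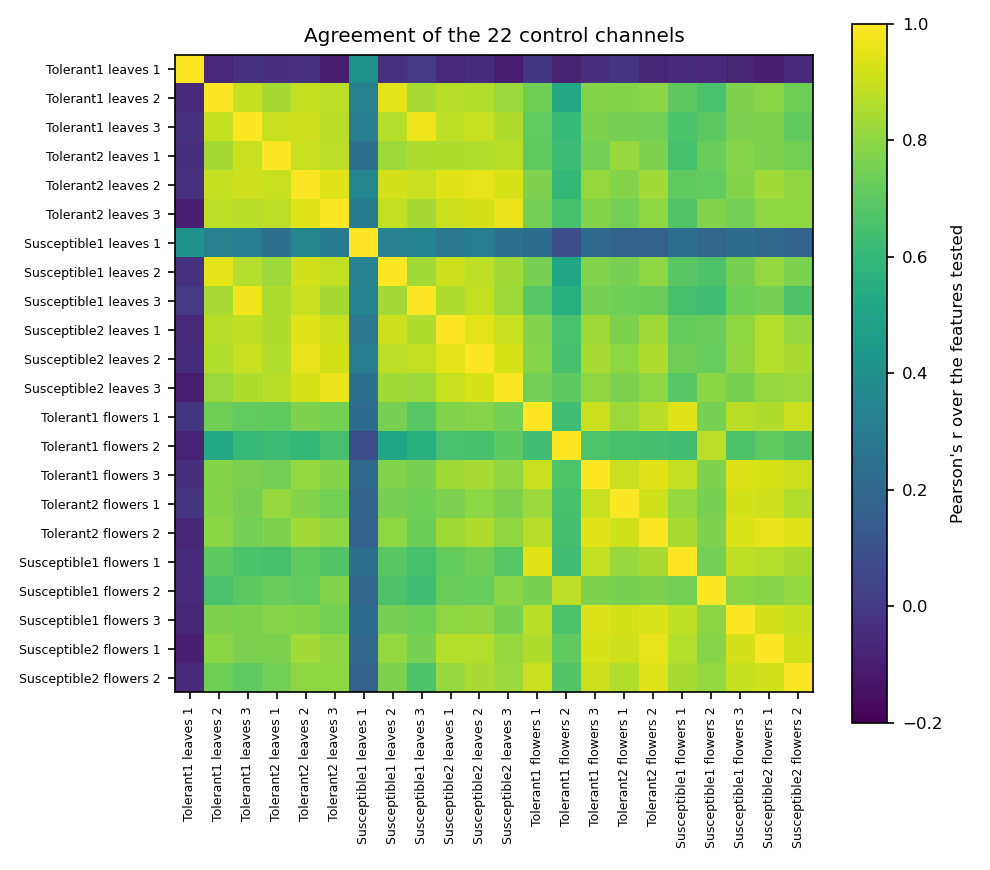
Pearson's r between each pair of the 22 control channels over the 509 features tested, with the 12 leaf channels first (left and top) and the 10 flower channels after them. Replicate 1 of Tolerant1 leaves and replicate 1 of Susceptible1 leaves form dark bands, with r of at most 0.0007 and 0.35 to the other 20 channels.

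Of the 756 features other than controls, 509 were bright enough in at least 1 tissue and had enough values to be tested. In limma with Benjamini-Hochberg adjustment, 59 features (11.6% of those tested) were higher in leaves and 111 (21.8%) were lower in leaves at an adjusted p below 0.05, together 170 (33.4%), where 219 had an unadjusted p below 0.05. The difference was at least 2-fold for 29 of the higher features and for 50 of the lower ones. The median difference over all 509 features was -0.24 and not 0, so a single feature is best read against that value. Scaling all spots before flagged ones were left out moved this median to -0.02, and scaling with both channels of each slide moved it to -0.07. With these scalings 91 features were higher and 94 lower, and 95 were higher and 102 lower, so that 49.2% and 48.2% of the calls were on the leaf side, against 34.7% in the main comparison. The excess of lower calls thus depended on the scaling. Without the 2 leaf channels that stood apart, 85 of 508 features (16.7%) were higher in leaves and 129 (25.4%) lower, and 166 of the 170 calls remained. With the random block 32 (6.29%) and 56 (11%) were called, 88 of the 170 remaining. With both changes 57 (11.2%) and 89 (17.5%) were called, and 129 of the 170 remained.

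**Figure D2:**
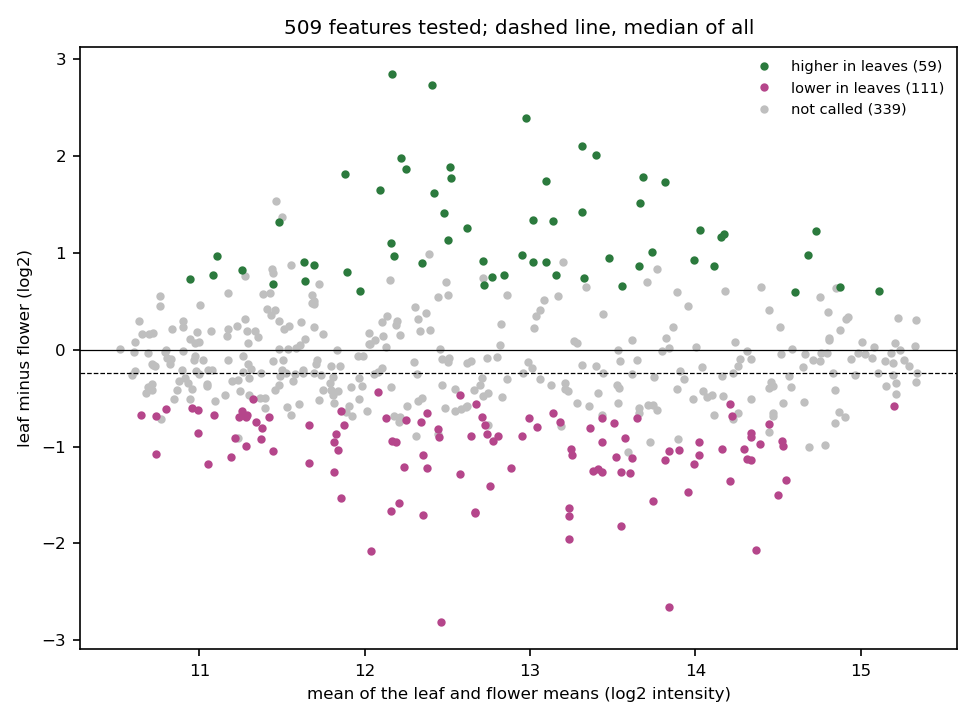
Leaf minus flower difference (log2) of each of the 509 features tested against the mean of its leaf and flower means (log2 intensity). Green points are the 59 features called higher in leaves, magenta points the 111 called lower and grey points those not called, and the dashed line is the median difference of -0.24.

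Features of 5 lists for the chloroplast and photorespiration made up 21 of the 59 calls higher in leaves, and those described as Unknown or Unclear 27. The lists covered the nuclear-encoded light reactions, chloroplast-encoded photosynthetic transcripts, other chloroplast DNA and rRNA, chloroplast ribosomal proteins, and the Calvin cycle with photorespiration. The last list also held enzymes that act outside the chloroplast. Glycolate oxidase, serine:glyoxylate aminotransferase, the glycine cleavage H protein and catalase were among the 21, which is therefore not a count of chloroplast features alone. Of the 72 members of the 5 lists 60 were tested, with a median difference of 0.50, and 21 of the 60 were higher in leaves and 4 lower. Among the other 449 features tested the median was -0.27, with 38 higher in leaves and 107 lower. With the random block 13 features of the 5 lists were higher and 1 lower, and of the other features 19 were higher and 55 lower. In the 20 channels 31 of 58 features of the 5 lists were higher and 4 lower, and with both changes 26 were higher and 2 lower. The lists were chosen with results of these data known, so the counts are a description.

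Carbon fixation and photorespiration carried some of the widest differences. Of 14 features on the array 12 were tested, 7 were higher in leaves and 1 was lower, with a median of 0.78 against -0.24 over all features, and 5 and 0 with the random block. Glycolate oxidase (DY396348, a grasspea cDNA), the peroxisomal enzyme that oxidises glycolate in photorespiration, ranged from 12.70 to 14.38 with a median of 13.95 in 10 leaf channels, against 10.45 to 11.47 with a median of 11.02 in 6 flower channels. The groups did not overlap, as was the case for 20 of the 509 features tested (3.93%), and the remaining 4 flower channels gave no unflagged spot for it, including all those of Tolerant1. The difference was 2.73 ± 0.31 (SE), or 6.64-fold (adjusted p = 2.36e-05, limma). Serine:glyoxylate aminotransferase (DY475479), another peroxisomal enzyme of that pathway, ranged from 10.60 to 13.91 in 11 leaf channels (median 12.88) and from 10.18 to 11.81 in 7 flower channels (median 10.94). Its lowest leaf value came from replicate 1 of Susceptible1 leaves, and the other 10 leaf values began at 12.38. It was 1.82 ± 0.32 higher in leaves (adjusted p = 0.000452).

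The H protein of the glycine cleavage system (DY475234), which carries the intermediate of glycine decarboxylation in mitochondria, averaged 14.67 ± 0.88 in leaves (SD, n = 11) and 13.38 ± 0.49 in flowers (SD, n = 10), with a fitted difference of 1.23 ± 0.27 (adjusted p = 0.00139). Catalase (DY396413), which removes the hydrogen peroxide made by glycolate oxidase, ranged from 11.00 to 13.30 in 10 leaf channels (median 12.16). In 7 flower channels it ranged from 10.43 to 11.48 (median 10.80), so the groups overlapped. Catalase differed by 1.32 ± 0.30 (adjusted p = 0.0033). Photorespiratory enzymes of the peroxisome and the mitochondrion were therefore both among the features higher in leaves.

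Within the Calvin cycle, ribose 5-phosphate isomerase (DY475240), which feeds the regeneration of ribulose bisphosphate, separated the tissues without overlap. It ranged from 13.19 to 14.63 in 10 leaf channels (median 14.10), against 11.03 to 12.97 in 10 flower channels (median 12.35), and the difference was 1.74 ± 0.21 (adjusted p = 1.45e-05). With flagged spots kept it was 1.26 and did not pass (adjusted p = 0.0532). Glyceraldehyde 3-phosphate dehydrogenase feature DY475212 was 0.65 ± 0.20 higher in leaves (adjusted p = 0.0171), and a second such feature, DY475096, had a difference of -0.24 that did not pass (adjusted p = 0.495). The names of both features give EC 1.2.1.12 and no compartment, so their place in the Calvin cycle is not shown. Carbonic anhydrase (DY475213), which interconverts carbon dioxide and bicarbonate, was 0.60 ± 0.18 higher (adjusted p = 0.0153). Both of these calls were lost with the random block (adjusted p = 0.162 and 0.146). The member on the other side was a fructose-1,6-bisphosphate aldolase (DY475547), an enzyme shared by the Calvin cycle and glycolysis. It ranged from 10.55 to 11.24 in 10 leaf channels (median 10.94) and from 11.38 to 12.40 in 8 flower channels (median 11.55), without overlap. Its difference of -0.70 ± 0.19 (adjusted p = 0.00808) did not pass with the random block (adjusted p = 0.117) or under either alternative scaling (adjusted p = 0.108 and 0.0971).

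The light reactions served as the check of the leaf label, since no cell type marker of flowers was named on the array. Of 20 nuclear-encoded features 18 were tested. Of these 3 were higher in leaves, 1 was lower and 14 did not pass, against 11.6% higher and 21.8% lower among all features tested. Their median was 0.22. With the random block 2 were higher and 1 lower, in the 20 channels 8 and 1, and with both changes 6 and 1. Ferredoxin-NADP reductase (DY475083), which passes electrons from photosystem I to NADP, was the member with the widest gap on the leaf side. Its 11 leaf values ran from 14.91 to 15.59 (median 15.36) and its 10 flower values from 13.49 to 14.56 (median 14.03), with no overlap and a difference of 1.23 ± 0.14 (adjusted p = 3.45e-06). Photosystem I subunit VI-2 (DY475285) averaged 14.74 ± 0.71 in leaves (SD, n = 11) and 13.57 ± 0.84 in flowers (SD, n = 8), with a fitted difference of 1.17 ± 0.27 (adjusted p = 0.00326). Photosystem I subunits IV (DY475128) and XI (DY475132) had differences of 0.83 and 0.55 that did not pass over all 22 channels (adjusted p = 0.0958 and 0.0959) and of 1.21 and 0.78 that passed in the 20 channels (adjusted p = 0.000132 and 0.00073).

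The 9 features named chlorophyll a/b binding protein, the antenna of the photosystems, did not move together. Of the 8 tested, none was higher in leaves and 1 was lower, with 2 higher and 1 lower in the 20 channels. The lower one, DY475554, ranged from 10.56 to 13.31 in 10 leaf channels (median 11.19) and from 10.93 to 14.12 in 10 flower channels (median 13.09), a difference of -1.59 ± 0.34 (adjusted p = 0.00139). Its highest leaf value came from replicate 1 of Susceptible1 leaves, and without the 2 leaf channels the difference was -1.93. Members of this family share sequence and can cross-hybridise on a cDNA array, so the identity of a single feature is less certain than its value. Most of this list was also very bright. Of its 18 tested features 11 averaged at least 14 in both tissues, against 77 of all 509, and 3 had spots whose mean signal reached 60000 or more on a scale that ended at 65535. The part of this brightness in their small differences was not tested.

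Among 13 tested features of other chloroplast DNA and rRNA, the 5 higher in leaves were all named chloroplast DNA, and 3 of the 5 calls held with the random block. Of the 6 features not so named, mainly plastid rRNA, limma called 0 in either direction, with 2 at an unadjusted p below 0.05. All 7 tested features named chloroplast DNA had positive differences, with a median of 1.62. DY475541 ranged from 10.99 to 15.35 in 11 leaf channels (median 14.54), against 10.89 to 13.47 in 10 flower channels (median 12.61), and differed by 2.01 ± 0.37 (adjusted p = 0.000417). Its lowest leaf value came from replicate 1 of Susceptible1 leaves, and the other 10 lay at 14.27 or more. DY475402 differed by 1.73 ± 0.27 (adjusted p = 9.82e-05) and EB085050 by 1.87 ± 0.37 (adjusted p = 0.000988). EB085019 differed by 1.62 ± 0.49, with wide and overlapping ranges of 10.48 to 15.25 in leaves and 10.13 to 13.72 in flowers, and its call (adjusted p = 0.0167) was lost with the random block (adjusted p = 0.0729). Its values followed those of a class 10 pathogenesis-related protein (CV793610) by channel. In Susceptible2 leaves they were 10.48, 11.37 and 12.82, against 11.03, 11.76 and 13.07 for CV793610 and 14.78, 15.12 and 14.27 for DY475541. Whether EB085019 reports a chloroplast transcript was not tested. Features named chloroplast DNA carry no gene name, and different ones can come from neighbouring plastid genes.

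Among chloroplast-encoded photosynthetic transcripts 3 of 9 tested were higher in leaves and none lower, and 1 of the 3 calls held with the random block. Photosystem I subunit IX (DY475047), a small subunit beside the reaction centre, ranged from 12.24 to 15.49 in 12 leaf channels (median 15.11) and from 10.53 to 15.12 in 10 flower channels (median 12.54). The spread among flower channels was wide (SD 1.63), and the difference was 1.79 ± 0.37 (adjusted p = 0.000858). The D2 protein of photosystem II (DY475142) was 1.10 ± 0.26 higher in leaves (adjusted p = 0.00264, with the random block 0.06). The c subunit of ATP synthase (DY475464), which forms the rotating ring of the enzyme, was counted with the respiratory chain because its name does not give the organelle. It ranged from 12.46 to 14.88 in 11 leaf channels (median 13.14), against 10.58 to 12.94 in 10 flower channels (median 11.68), and was 1.78 ± 0.28 higher in leaves (adjusted p = 9.82e-05). In that list of 9 tested features it was the 1 higher in leaves, and 3 were lower, against 11.6% and 21.8% of all features tested. The lower ones were succinate dehydrogenase subunit 3 (DY475443, -0.68 ± 0.24), a cytochrome c oxidase subunit (DY475113, -0.67 ± 0.24) and a subunit of the cytochrome c reductase complex (DY396401, -0.86 ± 0.24), all 3 enzymes of mitochondrial respiration. Their calls (adjusted p = 0.0373, 0.0487 and 0.011) were all lost with the random block.

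Of 20 cytosolic ribosomal proteins tested, 0 were higher in leaves and 12 were lower, against 21.8% lower among all features tested. All 20 had negative differences, from -1.47 to -0.37 with a median of -0.89. With the random block 8 were lower, in the 20 channels 16, and with both changes 13. The 60S protein L14 (DY475312) ranged from 10.39 to 14.12 in 12 leaf channels (median 13.79) and from 14.15 to 15.16 in 10 flower channels (median 14.81). Every leaf value lay below every flower value, and the difference was -1.47 ± 0.38 (adjusted p = 0.00458). Both channels that stood apart were low, at 10.94 and 10.39, and in the 20 channels the difference was -0.96. The 40S protein S27A (DY475354) differed by -1.36 ± 0.34 (adjusted p = 0.00458), and by -1.07 in the 20 channels. In the main comparison L23 (DY475425), S15 (DY475117) and S29 (DY475504) differed by -1.11, -0.97 and -1.02. The median of the list was -0.73 and -0.79 under the alternative scalings that used all spots or both channels, when the median of all features was -0.02 and -0.07.

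Of the 8 chloroplast ribosomal proteins tested, 3 were higher in leaves and 2 lower, with 2 and 0 under the random block and 5 and 2 in the 20 channels. The plastid protein L27 (DY475359) ranged from 11.34 to 14.87 in 11 leaf channels (median 14.51), against 11.27 to 13.96 in 8 flower channels (median 12.40), and was 1.42 ± 0.35 higher in leaves (adjusted p = 0.00413). Its lowest leaf value came from replicate 1 of Susceptible1 leaves, and in the 20 channels the difference was 1.66. Proteins S13 (DY475510) and S7 (DY475238) were 1.14 ± 0.27 and 0.68 ± 0.20 higher, the second call being lost with the random block (adjusted p = 0.0789). A feature named 50S ribosomal protein L7Ae (DY475429), a family best known from cytosolic and archaeal ribosomes, had a difference of -0.94 ± 0.30 (adjusted p = 0.0214), and a chloroplast 50S protein (DY475506) had -0.56 ± 0.16 (adjusted p = 0.0106). Both calls were lost with the random block (adjusted p = 0.157 and 0.152).

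A ribosomal RNA feature of the mitochondrion followed the cytosolic proteins in direction. This mitochondrial 26S rRNA feature (DY475087), 1 of 2 of that name on the array, ranged from 10.26 to 12.60 in 12 leaf channels (median 11.17) and from 12.34 to 14.17 in 10 flower channels (median 13.21). The difference was -1.71 ± 0.23, or 3.27-fold lower in leaves (adjusted p = 2.36e-05). Of 8 nuclear and mitochondrial rRNA features tested, 4 were lower in leaves and 0 higher, against 21.8% and 11.6% of all features tested. The 8 differences ran up to 0.58, and 2 were positive. With the random block 2 of the 4 calls held. Of 6 translation factors 1 was lower, a translational activator (EB085015, -0.60 ± 0.19, adjusted p = 0.02, with the random block 0.166).

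**Figure D3:**
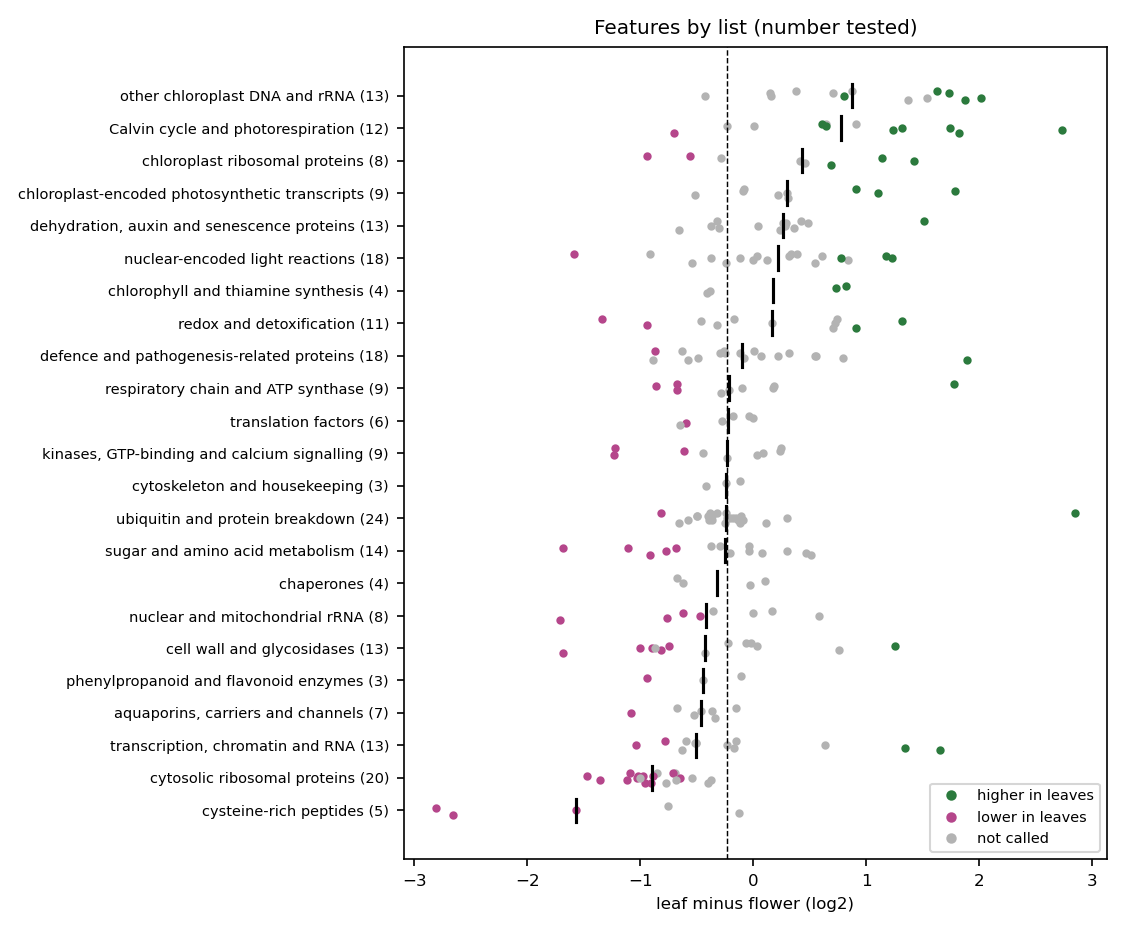
Leaf minus flower difference (log2) of each tested feature in 23 lists, with the number tested in brackets and with green for features called higher in leaves, magenta for lower and grey for not called. The short black bars are list medians, from 0.88 for other chloroplast DNA and rRNA to -1.56 for cysteine-rich peptides, and the dashed line is the median of all features tested, -0.24.

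Small cysteine-rich peptides gave the widest gaps on the flower side. These are secreted peptides held by disulphide bonds, known for antimicrobial activity and often abundant in flowers and young fruit. Of 5 tested, 3 were lower in leaves with and without the 2 leaf channels and the random block, and 0 were higher. A SNAKIN2 precursor (CV793606) was measured in 7 of 12 leaf channels at 10.31 to 13.09 (median 10.87) and in all 10 flower channels at 12.88 to 15.45 (median 13.81). The groups overlapped by 1 leaf value, and the difference was -2.81 ± 0.38, or 7.01-fold lower in leaves (adjusted p = 6.48e-05). A second SNAKIN2 feature (CV793608) ranged from 10.06 to 13.99 in 11 leaf channels (median 13.23) and from 13.37 to 15.47 in 10 flower channels (median 14.41), a difference of -1.56 ± 0.39 (adjusted p = 0.00388). The 2 SNAKIN2 features can share signal. A gamma-thionin type defensin (CV793588) ranged from 10.46 to 14.25 in 11 leaf channels (median 12.62) and from 13.46 to 15.62 in 8 flower channels (median 15.50), and was 6.32-fold lower in leaves, at -2.66 ± 0.49 (adjusted p = 0.000526). Leaf replicates of this defensin spread widely (SD 1.31), as in Tolerant2 with 10.46, 12.44 and 13.60. With flagged spots kept its difference was -1.45 and did not pass (adjusted p = 0.238). Both lipid transfer proteins tested had negative differences that did not pass.

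Other defence features mostly did not separate the tissues. Of 18 defence and pathogenesis-related features tested, 1 was higher in leaves, 1 was lower and 16 did not pass. The higher one was a class 10 pathogenesis-related protein (CV793610), a family of small intracellular proteins induced by pathogens in legumes. It ranged from 11.03 to 15.25 in 10 leaf channels (median 13.22) and from 10.33 to 13.73 in 9 flower channels (median 11.13), a difference of 1.89 ± 0.47 (adjusted p = 0.00458). With flagged spots kept it was 1.47 and did not pass (adjusted p = 0.0748). By channel, CV793610 followed the chloroplast DNA feature EB085019, and whether the 2 are separate results was not tested. The leaf minus flower differences of CV793610 were 3.6 and 1.24 in Tolerant1 and Tolerant2, and 2.38 and 0.78 in Susceptible1 and Susceptible2. Its interaction between tissue and genotype did not pass (adjusted p = 0.923, limma F-test). The lower one was a subtilisin inhibitor (DY396426, -0.87 ± 0.19, adjusted p = 0.00225, with the random block 0.06). None of the 41 lentil resistance gene analogs was bright enough to be tested.

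Several enzymes of sugar conversion and the cell wall were lower in leaves. UDP-glucose 4-epimerase (DY475221), which makes the UDP-galactose used in wall polysaccharides, ranged from 11.17 to 12.98 in 10 leaf channels (median 11.69) and from 12.53 to 14.47 in 10 flower channels (median 13.44). It was 3.20-fold lower in leaves, at -1.68 ± 0.27 (adjusted p = 0.000136), while a second feature of that name (DY475149) had a difference of -0.06 (adjusted p = 0.898). Of 13 cell wall features tested, with a median of -0.43 that was 0.06 when all spots were scaled, 5 were lower in leaves, against 21.8% of all features tested, and 1 was higher, a beta-galactosidase (DY475141, 1.25 ± 0.35, adjusted p = 0.0109), which removes galactose from wall polymers. With the random block that call was lost (adjusted p = 0.165), and 3 of the 5 lower calls remained. Of the lower ones, a beta glucosidase (DY475415) and a nucleotide-sugar dehydratase (DY475244) differed by -0.999 ± 0.206 and -0.895 ± 0.187.

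In sugar and amino acid metabolism 5 of 14 tested features were lower in leaves and 0 higher, against 21.8% and 11.6% of all features tested. The median of -0.25 was 0.02 when all spots were scaled. Glutamate dehydrogenase (DY475308), which interconverts glutamate and 2-oxoglutarate in mitochondria, ranged from 11.19 to 12.31 in 11 leaf channels (median 11.86), against 12.57 to 14.25 in 8 flower channels (median 13.64). The groups did not overlap, and the difference was -1.68 ± 0.22, or 3.21-fold lower in leaves (adjusted p = 2.81e-05). With flagged spots kept it was -0.55 and did not pass (adjusted p = 0.505). Sucrose synthase (DY475105), which splits imported sucrose in sink tissues, averaged 13.00 ± 0.45 in leaves and 14.03 ± 0.57 in flowers (SD, n = 10 each) and differed by -1.11 ± 0.21 (adjusted p = 0.000593). Xylose isomerase (DY475309), enolase (DY396267) and adenosylhomocysteinase (DY475372) differed by -0.92, -0.77 and -0.68, and none of the 3 calls held with the random block. A membrane sugar-transport protein (DY475239) was measured in 6 leaf channels at 10.13 to 10.65 (median 10.23) and in 10 flower channels at 10.56 to 11.85 (median 11.11), a difference of -1.08 ± 0.23 (adjusted p = 0.00264). It was -0.78 when all spots were scaled and -0.90 when both channels were, and passed with neither (adjusted p = 0.077 and 0.0523). The aquaporins had differences between -0.15 and -0.68, none of which passed. Caffeoyl-CoA methyltransferase (CV793595), of lignin synthesis, had a difference of -0.94 ± 0.20 (adjusted p = 0.00129).

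Regulators on the flower side included a GTP-binding protein (DY475290), which ranged from 11.57 to 13.25 in 10 leaf channels (median 12.05) and from 12.81 to 14.09 in 10 flower channels (median 13.51), a difference of -1.22 ± 0.24 (adjusted p = 0.000736). A feature with similarity to a receptor protein-tyrosine kinase (DY475463) differed by -1.24 ± 0.20 (adjusted p = 0.000147). Of 9 signalling features tested, 3 were lower in leaves and 0 higher, against 21.8% and 11.6% of all features tested. The third lower one was a protein kinase (DY475077, -0.61 ± 0.20, adjusted p = 0.0282, with the random block 0.147). A transcription factor of the AP2/EREBP1 class (CV793594), a plant DNA-binding family with members in flower development and in stress responses, had 10 leaf values of 10.93 to 11.70 (median 11.33), all below its 10 flower values of 11.86 to 12.91 (median 12.29). The difference was -1.03 ± 0.16 (adjusted p = 0.000111). On the leaf side, an RNA/ssDNA binding protein (DY475357) ranged from 11.57 to 13.43 in leaves (median 13.01) and from 10.55 to 12.02 in flowers (median 11.26), with 10 channels each, and differed by 1.65 ± 0.26 (adjusted p = 9.82e-05). An RNA polymerase beta subunit (DY475196) was 1.34 ± 0.29 higher in leaves (adjusted p = 0.00141). These were the 2 higher of 13 transcription and RNA features tested, and a poly(A)-binding protein (DY396360, -0.78 ± 0.23, adjusted p = 0.0145, with the random block 0.165) was the second lower one. A cationic peroxidase (DY475306), a secreted enzyme that uses hydrogen peroxide, had a difference of -1.34 ± 0.25 (adjusted p = 0.000526, with median centring 0.0663), with 12.76 to 15.29 in leaves (median 14.11) and 14.58 to 15.63 in flowers (median 15.20).

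The widest difference on the leaf side belonged to a peptidase-like protein (DY475387). Its 10 leaf values ran from 12.72 to 14.32 (median 13.48) and its 8 flower values from 10.39 to 11.18 (median 10.75). There was no overlap, and the difference of 2.85 ± 0.23 was 7.19-fold (adjusted p = 2.06e-07). It was the 1 feature higher in leaves among 24 tested for ubiquitin and protein breakdown. All 16 features named ubiquitin or polyubiquitin had negative differences with a median of -0.29, near that of all features, and 1 was called (DY396378, -0.82 ± 0.27, adjusted p = 0.0258, with the random block 0.194). PPF1 (DY475509), named in pea as a post-floral gene and related to a thylakoid membrane protein, ranged from 12.22 to 14.75 in 11 leaf channels (median 14.68), against 11.98 to 13.61 in 10 flower channels (median 12.96), a difference of 1.51 ± 0.24 (adjusted p = 0.00012). With flagged spots kept it was 1.27 and did not pass (adjusted p = 0.0601). Both magnesium chelatase features (DY396363 and DY396339), of chlorophyll synthesis, were higher in leaves by 0.82 ± 0.24 and 0.73 ± 0.25 (adjusted p = 0.0171 and 0.0317), and both calls were lost with the random block. Actin (DY475300) had 11.51 to 15.25 in 11 leaf channels (median 14.92) and 14.24 to 15.55 in 10 flower channels (median 14.86), and its difference of -0.11 ± 0.32 did not pass (adjusted p = 0.807), nor did that of 0.20 in the 20 channels (adjusted p = 0.259).

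Metallothioneins, small metal-binding proteins rich in cysteine, went both ways. Of 5 tested, the type 1 feature DY396406 ranged from 11.63 to 14.11 in 11 leaf channels (median 13.14) and from 11.40 to 13.07 in 10 flower channels (median 12.25), a difference of 0.91 ± 0.31 (adjusted p = 0.0263). MT-2 (DY475049) ranged from 10.70 to 14.62 in 11 leaf channels (median 14.43) and from 14.24 to 15.46 in 10 flower channels (median 15.04), a difference of -0.94 ± 0.35 (adjusted p = 0.0465). Both calls were lost with the random block (adjusted p = 0.123 and 0.086). PPF1 was the 1 called of 13 features in the list of dehydration, auxin and senescence proteins, where a cold-induced dehydrin (DY475092), of a family that protects drying cells, had 0.36 ± 0.48 (adjusted p = 0.603). Of 4 chaperones tested limma called 0, with 1 at an unadjusted p below 0.05, and of 3 cytoskeleton features 0, with 0 below it.

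**Figure D4:**
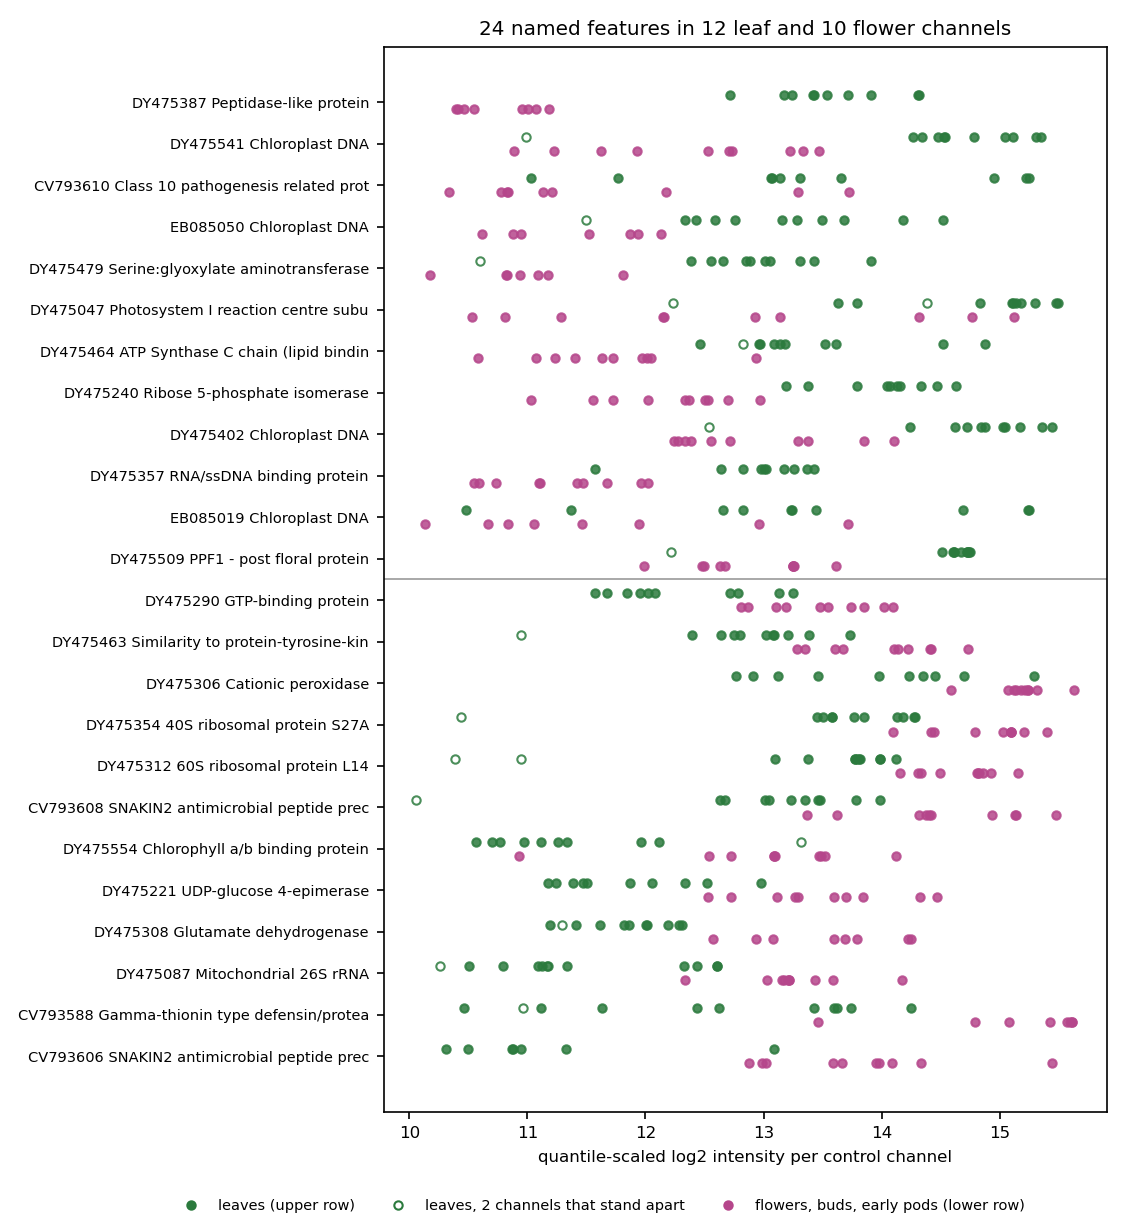
Quantile-scaled log2 intensity of the 12 functionally named features with the widest positive and the 12 with the widest negative leaf minus flower difference, among those called with the same sign in all 4 genotypes. Green points are leaf channels (open for the 2 that stood apart) and magenta points flower channels, and in the peptidase-like protein the leaf points begin at 12.72 and the flower points end at 11.18.

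Transcripts without a known function were called about as often as the rest. Of 236 tested features described as Unknown or Unclear, which were 46.4% of those tested and 46.5% of those called, 27 were higher in leaves and 52 lower. DY475376 ranged from 13.60 to 14.94 in 11 leaf channels (median 14.02), against 10.35 to 12.97 in 8 flower channels (median 12.11), with a difference of 2.40 ± 0.24 (adjusted p = 1.48e-06). CA0753 ranged from 14.03 to 15.07 in 11 leaf channels (median 14.42), against 11.37 to 13.36 in 10 flower channels (median 12.11), with a difference of 2.10 ± 0.21 (adjusted p = 5.04e-07). Neither overlapped between the tissues. DY475339 differed by 1.98 ± 0.39 (adjusted p = 0.000593). On the flower side, DY475315 had leaf values of 10.44 to 11.67 (median 11.11) and flower values of 11.90 to 13.85 (median 13.13) in 10 channels each, a difference of -2.08 ± 0.18 and an adjusted p of 2.06e-07. EB085053 and DY475437 differed by -2.07 ± 0.30 and -1.96 ± 0.25, also without overlap. DY475296, likewise unknown, was below 2 times background in all 12 leaf channels and reached it in 5 of 10 flower channels. The lower bound on its flower over leaf ratio was 1.03, too close to 1 to show a difference. Of the 3 features this dim in leaves, the others (DY475311 and DY475546) had bounds of 0.954 and 0.646.

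Most called features had 1 direction in all genotypes. Of the 170 called features 164 had values in both tissues of all 4 genotypes, and 155 of these had the same sign in each. The calls rest on the same channels, so a shared sign was partly set by the selection and is a description only. The limma F-test of the interaction between tissue and genotype called 1 of 490 features (0.204%), with 26 at an unadjusted p below 0.05, and 2 of 489 (0.409%) in the 20 channels, with 45. A p above the threshold does not show that genotypes were alike. Tested within a genotype, 23 features (4.69% of 490) were higher in leaves and 16 (3.27%) lower in Tolerant1. In Tolerant2 these were 4 (0.816%) and 19 (3.88%). Susceptible1 had 24 (4.9%) and 12 (2.45%), and Susceptible2 had 4 (0.816%) each way. These counts rest on at most 2 or 3 channels per tissue, fewer where a feature lacked values, and were not tested against each other. The SNAKIN2 feature CV793606 had leaf minus flower differences of -3.04, -3.14, -3.01 and -2.13 in Tolerant1, Tolerant2, Susceptible1 and Susceptible2. Those of Tolerant1 and Susceptible1 rest on 1 leaf value each, 10.50 and 10.95. The peptidase-like protein had 3.40, 2.31, 3.40 and 2.46 in the same order. The chlorophyll a/b binding feature DY475554 varied more, at -0.88 and -0.39 in Tolerant1 and Susceptible1 and -2.94 and -2.14 in Tolerant2 and Susceptible2.

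**Figure D5:**
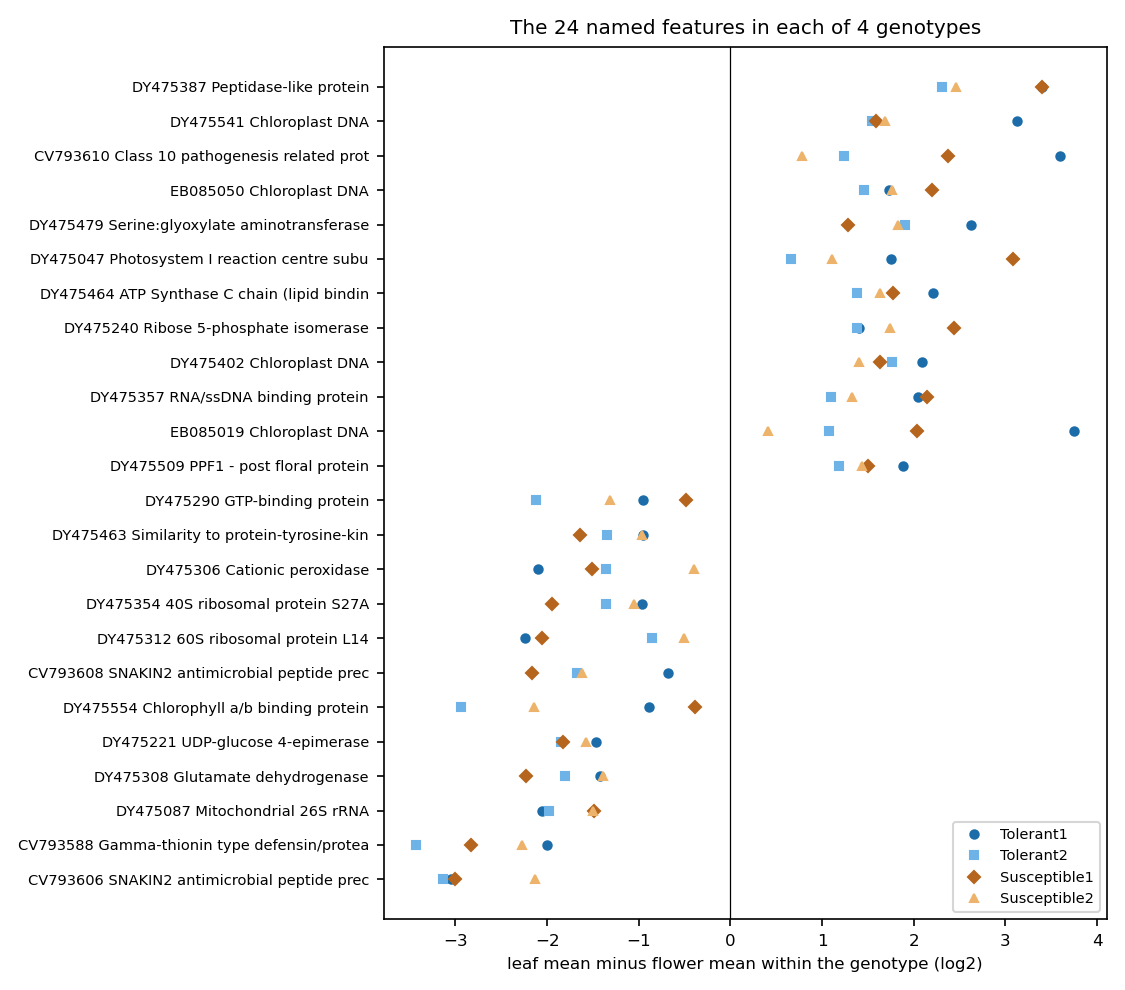
Leaf mean minus flower mean (log2) within Tolerant1, Tolerant2, Susceptible1 and Susceptible2 for the 24 features of the plot of values by channel. The features were chosen for having 1 sign in all genotypes, so each row has its 4 points on 1 side of 0, from 3.40 and 2.31 at the top for the peptidase-like protein to between -3.14 and -2.13 at the bottom for the SNAKIN2 feature CV793606.

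Tolerant1 with Susceptible1 and Tolerant2 with Susceptible2 were also quantified in different periods, per the file headers. Within replicates 2 and 3 of the first set 64 of 503 features were higher in leaves and 35 lower, and within the second set 47 of 521 were higher and 172 lower. Flower channels of the second set had 67.8% to 75.8% of spots unflagged, against 59.1% to 65.8% in its leaf channels, while in replicates 2 and 3 of the first set these were 59.0% to 67.6% in flowers and 56.4% to 65.4% in leaves. The part of this in the number of lower calls was not tested.

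The cold channels of the same slides gave the same comparison in cold-treated plants. Of 535 features tested, 55 (10.3%) were higher in leaves and 114 (21.3%) lower. All 170 features called in control plants had the same sign in cold-treated plants, 128 were called there too in that direction, and 0 were called in the opposite one. Over the 509 features tested in both, the differences correlated at r = 0.91, which describes features and not replicates, and both channels share slides, spots and local background. Glycolate oxidase, the peptidase-like protein and the SNAKIN2 feature CV793606 differed by 2.51, 2.74 and -2.70 in cold-treated plants, against 2.73, 2.85 and -2.81 in control plants. The second SNAKIN2 feature (CV793608) had -0.41 there, which did not pass (adjusted p = 0.322), and ferredoxin-NADP reductase had 0.84 (adjusted p = 0.0884).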

How the data were processed

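The data were spot intensities of a pulse cDNA array, 1 channel per file. The deposited values were the mean signal and mean background intensity of every spot, written by ImaGene with no normalization, per the file headers. A further table by the authors, with log2 group means of cold over control, cannot give a tissue difference and was not used. Features were named from the study's feature list, joined by print order (732 of 732 full positions matched). The reference gene table held 0 of the 668 accessions looked up.

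R 4.3.3 with limma 3.58.1 was used. Control-channel intensities received the normexp correction, with an offset of 50, and a log2 transformation. Spots flagged as empty or poor were left out, the rest averaged per feature, and channels quantile scaled. Empty spots are dim ones, so a dim tissue keeps only its brighter values, which can change the differences of such features in either direction. With flagged spots kept, 8 of 46 named features lost their call. The differences given above for that setting were smaller in size than in the main comparison. What the flags contributed to this was not tested. Of the values of tested features 11.1% were missing. A feature was tested where its signal was at least 2 times background in at least 0.5 of the channels of 1 tissue that had a value, with values from at least 6 leaf and 5 flower channels. The model held tissue, genotype and dye, with a two-sided moderated test and Benjamini-Hochberg adjustment over all features tested, which gave all adjusted p-values for which no other model is stated. Interaction and per-genotype tests used 8 group means plus dye. The procedure was also run on simulated data with independent noise in each channel. Such data hold no resemblance between channels of a random block, so they cannot show how the main fit behaves where channels resemble each other. Precision is limited by the number of channels. Dye followed the replicate number within a genotype. For replicate 1 of Tolerant1 and Susceptible1 leaves the headers name no dye, so condition and dye of these channels rest on how the deposited channels were named.

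The members, lists and tests were chosen with earlier results of these data known. Named features were the 12 functionally named with the widest difference in each direction among those called with 1 sign in all genotypes, 3 undescribed ones each way, the widest called member of each list each way, actin, and a feature below background in 1 tissue. Other features were named after their values were seen, to describe a list. The fits without the 2 leaf channels that stood apart were added after seeing the data.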

Additional observations from a re-analysis of the deposited data

Results flagged for a closer look

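Among 49 sets of flower values examined for a channel far from the others, 3 had one, and chance alone marks about 1 in 20 such sets. The gamma-thionin type defensin (CV793588) had 13.46 in replicate 2 of Tolerant1 flowers, where the other 7 flower values ran from 14.79 to 15.62. The chlorophyll a/b binding feature DY475554 had 10.93 in replicate 1 of Tolerant1 flowers, against 12.54 to 14.12 in the other 9 channels. The fructose-1,6-bisphosphate aldolase (DY475547) had 12.40 in replicate 1 of Tolerant2 flowers, against 11.38 to 11.75 in the other 7.

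The tissue difference of 1 feature differed between genotypes by the interaction test. This was DY475396, similar to an endopeptidase (adjusted p = 0.0115, limma F-test). Its leaf values were 10.74 to 11.66 in 10 channels, and its 5 flower values were 10.41 to 10.87 in 4 channels and 15.67 in replicate 1 of Susceptible1 flowers, the only flower channel of that genotype with a value. The test rests on that channel. In the 20 channels the adjusted p was 0.00279.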

How the results depend on the processing

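Of 1941 results for 46 named features under 44 alternatives, 1844 kept their direction and their side of the threshold, 96 kept the direction but lost the call, 0 gained one and 1 reversed, the chlorophyll a/b binding feature DY475554 within quantification period 1 (0.16, against -1.59). All of these features but actin were chosen as called, so only actin could gain a call. Of the alternatives 22 left out a single channel, a small change. With the random block 9 of 46 lost the call, and in Tolerant1 and Susceptible1 only 17 of 42. Main counts were 59 higher and 111 lower in leaves. Leaving out 1 channel at a time gave 54 to 73 higher and 90 to 126 lower. Quantile scaling of all spots gave 91 higher, and loess with Aquantile gave 95. Only 121 features had a value in all channels, of which 18 were higher and 17 lower. The random block gave 32 and 56. Period 1, with 235 features tested, gave 19 and 32, period 2 gave 35 lower, and period 3, which is Tolerant2 and Susceptible2 only, 172 lower. Tolerant1 and Susceptible1 only gave 30 and 19. The cause of these shifts was not tested, beside fewer features or channels. The replicate block, pairing leaf with flower channels of 1 genotype and number, gave 62 and 108, with 153 of the 170 calls kept. Residuals of such pairs correlated at -0.62 to 0.58, with 3 of 8 over 0.1. These values are too few and too spread to show whether the numbers pair the tissues. The interaction called 1 feature, 0 with median centring or flagged spots kept, and 2 without the dye term or in the 20 channels. Counts in cold channels stayed within 1.5 times under the 4 alternatives run.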
